A study of Homo sapiens with 9 samples.

Results

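The human mitochondrial genome is a small circle of DNA that carries 37 genes, and all 37 were found among the 58735 genes of the deposited table as the rows whose symbol begins with MT- on chromosome MT. They comprise 13 protein-coding genes, 2 ribosomal RNA (rRNA) genes and 22 transfer RNA (tRNA) genes. They were measured in GBM43, a glioblastoma cell line grown in medium with fetal bovine serum and then seeded into 3-dimensional hyaluronic acid gels in which the cells can invade. Control devices (described in the sample labels both as given culture medium and as given the vehicle DMSO) were divided by scalpel, which gave core and invasive fractions. Devices given 50 µM MK801, which blocks NMDA-type glutamate receptors, were processed with both fractions pooled because few cells had left the core. There were 3 libraries of each group, 9 in all, made from RNA captured on poly-T beads. The MK801 group thus differs from each control group in treatment and also in which cells it holds. Nothing in the labels says that the 3 libraries of a group were separate cultures. The p-values therefore reflect library-to-library spread alone, and that spread may be technical.

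Both strands of the mitochondrial genome are transcribed by the polymerase POLRMT into long precursors that cover many genes. The tRNAs sit between most of the other genes, and their excision releases the mRNAs and rRNAs. Most of the mRNAs then receive short poly-A tails and the rRNAs still shorter ones, which poly-T beads can catch. Mature tRNAs end in CCA and carry no such tail. The 13 proteins are subunits of the respiratory chain and the ATP synthase, which they form together with many subunits encoded in the nucleus.

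The ends of the mRNAs show how closely genes and tails are joined. In the reference sequence (GENCODE release 29 transcripts, GRCh38), the length of 6 of the 13 mRNA genes is not a multiple of 3, so that the gene stops within the last codon, and the tail supplies the A bases that complete the stop. The last 30 bases of these 6 genes are printed 5′ to 3′, with the part codon in capitals.

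MT-ND1 (MT:4233-4262, plus strand): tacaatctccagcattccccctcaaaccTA
MT-ND2 (MT:5482-5511, plus strand): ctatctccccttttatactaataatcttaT
MT-CO3 (MT:9961-9990, plus strand): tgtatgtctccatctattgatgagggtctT
MT-ND3 (MT:10375-10404, plus strand): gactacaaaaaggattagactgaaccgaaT
MT-ND4 (MT:12108-12137, plus strand): accccgacatcattaccgggttttcctctT
MT-CYB (MT:15858-15887, plus strand): taattgaaaacaaaatactcaaatgggccT

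The other 7 lengths are multiples of 3. MT-CO1 ends in AGA and MT-ND6 in AGG, triplets that end the reading frame in mitochondria. MT-ATP8 and MT-ATP6 lie on 1 shared transcript and overlap by 46 bases (MT:8527-8572), shown here with the start codon of MT-ATP6 and the stop codon of MT-ATP8 in capitals because fragments there belong to both genes.

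MT-ATP8/MT-ATP6 overlap: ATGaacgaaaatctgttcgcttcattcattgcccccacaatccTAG

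MT-ND4L and MT-ND4 overlap by 7 bases (MT:10760-10766). The settings used to count fragments on overlapping genes and on opposite strands are not given in the sources used here. Levels of these genes, of MT-ND6 and of the 8 tRNA genes on the minus strand may therefore include fragments of the RNA that overlaps them or lies opposite.

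The libraries held 15.6 to 54.4 M fragments on genes (M for 1e6), and the share of these that fell on mitochondrial genes was 2.48 to 5.56%. Thinned to 15.6 M fragments, core libraries detected 20322 to 21414 genes, invasive libraries 15975 to 19140, and MK801 replicates 1, 2 and 3 detected 15161, 19031 and 21517. Invasive replicate 2 and MK801 replicate 1 detected the fewest, and these libraries also had the highest fragment-weighted mean GC content of transcripts, 53.7 and 53.6%, against 49.0 to 50.3% in core. VIM, CD44, SOX2, SOX9, EGFR and PDGFRA were at or above 1 FPKM in all 9 libraries, while NES, OLIG2, GFAP, S100B, PROM1 and FABP7, the other 6 of 12 glioma markers, stayed under 1 FPKM in every library. Markers of fibroblasts and pericytes, 10 genes led by COL1A1 and COL1A2, summed to 79.1 to 154 FPKM in core, 361 to 636 in invasive and 89.0 to 209 in MK801 libraries. COL1A1, COL1A2 and PDGFRB had the highest group means of the 10. RGS5 and KCNJ8 had lower means in invasive than in core, and RGS5 and DCN stayed under 1 FPKM in every library. Of the 8 with at least 1 FPKM in at least 3 libraries, 7 were higher and 1 lower in invasive. The part of these markers in the differences below was not tested.

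The cytochrome c oxidase mRNAs MT-CO2 and MT-CO1 led the mitochondrial genes in every library. FPKM, fragments per kilobase of gene and per M fragments, divides by gene length so that genes can be set side by side. How far this holds for short genes, such as MT-ATP8 and the tRNA genes, was not tested. MT-CO2 (ENSG00000198712, MT:7586-8269), a catalytic subunit of that enzyme (complex IV), was first of the 13 mRNAs in all 9 libraries and held rank 1 to 3 among all 58735 genes. MT-CO1 (ENSG00000198804, MT:5904-7445), which holds the site where oxygen is reduced, was the second mRNA in all 9. Behind them, in changing order, came MT-CO3, MT-ATP6, MT-ND4, MT-ND2 and MT-ND3, the last of which ranged from place 4 to place 9. MT-ND1, MT-ND4L and MT-CYB lay between places 7 and 10, MT-ND6 and MT-ND5 exchanged places 11 and 12, and MT-ATP8 was last throughout.

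**Figure D1:**
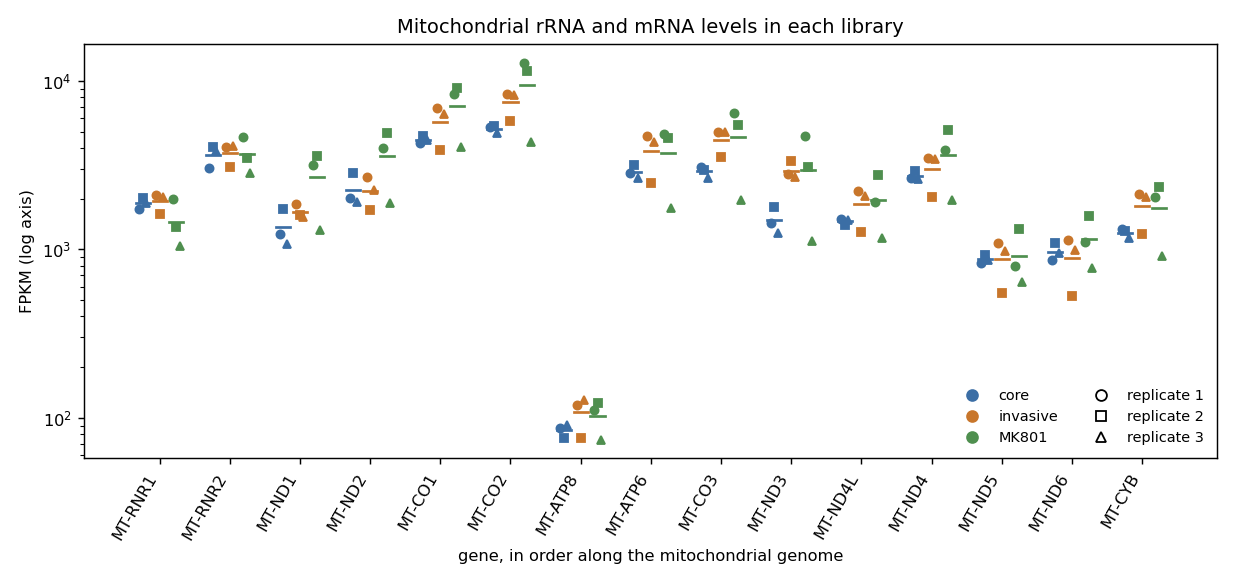
FPKM (log axis) of the 2 rRNAs and 13 mRNAs in genome order, 1 point per library, with group means as short lines. MT-CO2 reached 12782 FPKM in MK801 replicate 1, MT-ATP8 stayed between 74.5 and 127 FPKM, and MK801 replicate 3 gave the lowest MK801 value for all 13 mRNAs.

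The range between the top and the bottom of this order was wide. Averaged over the 9 libraries, MT-CO2 stood at 7381 FPKM, MT-ND5 at 890.3 and MT-ATP8 at 98.6. MT-ATP8 (ENSG00000228253, MT:8366-8572), a small membrane subunit of the ATP synthase, shares its transcript with MT-ATP6, yet MT-ATP6 was 23.8 to 43.4 times higher in FPKM. Fragments within the 46-base overlap, and the short length of MT-ATP8 (207 bases), bear on this ratio, and their part was not tested. MT-ND4 and MT-ND4L, which also share a transcript, stood much closer, with an FPKM ratio of 1.58 to 2.09. Over the 12 plus-strand mRNAs, Spearman's rho between start position and level was -0.22 to -0.44 in the 9 libraries, a description across genes that share precursors within 1 library.

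Most mitochondrial mRNAs had a higher mean FPKM in invasive than in core libraries, and none of these differences passed the test. Of the 13 mRNAs, 10 were higher and 3 lower in invasive libraries. Their median log2 difference was 0.31, while the median over all 11845 genes tested was -0.02. That background holds many weak genes, and over the 6886 genes kept by a filter of 5 FPKM the median was 0.24. Limma called 0 of the 13 (adjusted p 0.151 to 0.969), and 0 had an unadjusted p under 0.05. Over all genes it called 0% (4461 of 11845 had an unadjusted p under 0.05). Limma-voom, run on recovered fragments, called 0 genes in this and in both other comparisons (0 of the 13 mRNAs at an unadjusted p under 0.05 in each). The direction depended on scaling, since the median of the 13 was 0.01 when fragments were scaled per M, -0.00 with voom and -0.21 after quantile normalization. Scaling per M also moved the median of all genes to -0.25, and it was -0.36 with voom and 0.01 after quantile normalization. With the trend over gene GC content removed, all 13 were higher, with a median of 0.67, and without invasive replicate 2 the median was 0.55.

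Whether core and invasive libraries were pairs from 1 device bears on this test. The labels do not say so, but both fractions were cut from control devices, and the column names of same-numbered core and invasive libraries begin alike. When a block for replicate number was added to the model of all 9 libraries, limma called 11.7% of all genes higher and 9.64% lower in invasive, and 0 of the 13 mRNAs (adjusted p 0.0978 to 0.967). With core and invasive alone and the same block, a fit chosen after the data were seen, it called 30.7% higher and 29.5% lower, and 2 of the 13, both higher. These were MT-ND3 (adjusted p = 0.0040) and MT-CO3 (adjusted p = 0.033), a smaller share than among all genes.

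The invasive and core libraries did not overlap for MT-CO2, MT-CO3 and MT-ND3, all higher in invasive, while 32.0% of all tested genes were higher and 32.8% lower without overlap in this comparison. At 3 of 13, the count is no larger than that background. MT-CO2 was at 5295, 5379 and 4899 FPKM in core and 8376, 5767 and 8251 in invasive libraries (5191 ± 256 against 7465 ± 1472, SD, n = 3 libraries, as for all levels given so). Its lowest invasive value was close to the highest core value, and the log2 difference was 0.50 (SE 0.45, limma adjusted p = 0.390). MT-CO3 (ENSG00000198938, MT:9207-9990), another core subunit of complex IV, was at 3095, 2969 and 2643 FPKM in core and 4955, 3514 and 4939 in invasive libraries. That difference was 0.61 on the log2 scale (SE 0.46, limma adjusted p = 0.308). MT-CO1 overlapped between the fractions, with 4259, 4732 and 4454 FPKM in core and 6929, 3878 and 6334 in invasive libraries.

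MT-ND3 (ENSG00000198840, MT:10059-10404), a small membrane subunit of complex I, the NADH dehydrogenase, had the largest difference of the 13 mRNAs between invasive and core. It was at 1443, 1782 and 1244 FPKM in core libraries and 2809, 3321 and 2676 in invasive libraries. Here invasive replicate 2, which gave the lowest invasive value for 11 of the 13 mRNAs, gave the highest. The fold of the means was 1.97 and the log2 difference 0.99 (SE 0.48, limma adjusted p = 0.151). Besides the paired fit above, the difference passed the test in 2 others, with adjusted p = 0.014 when the core and invasive groups were compared alone and 0.026 without MK801 replicate 3. In those fits 26.3 and 21.9% of all genes were called higher, so MT-ND3 was 1 of many.

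The remaining complex I mRNAs differed less between the fractions. MT-ND1 (ENSG00000198888, MT:3307-4262), next to the quinone site, was at 1235, 1740 and 1080 FPKM in core and 1846, 1596 and 1565 in invasive libraries. MT-ND2 (ENSG00000198763, MT:4470-5511), a proton-pumping subunit, was at 2004, 2825 and 1900 against 2673, 1706 and 2248. MT-ND4 (ENSG00000198886, MT:10760-12137), also a pumping subunit, was at 2730 ± 153 FPKM in core and 3000 ± 817 in invasive libraries. All overlapped between groups, with log2 differences of 0.33, -0.02 and 0.10. MT-ND4L (ENSG00000212907, MT:10470-10766) was at 1467 ± 66.6 FPKM in core and 1850 ± 512 in invasive libraries.

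MT-ND5 (ENSG00000198786, MT:12337-14148), the pumping subunit at the far end of the membrane arm, was at 834, 923 and 870 FPKM in core and 1098, 552 and 978 in invasive libraries. MT-ND6 (ENSG00000198695, MT:14149-14673), the only one of the 13 encoded on the minus strand, was at 861, 1094 and 955 against 1142, 527 and 988 FPKM. In both, invasive replicate 2 lay below all core libraries and invasive replicate 1 above all of them. The log2 differences were -0.06 and -0.20 (limma adjusted p = 0.908 and 0.690).

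Complexes III and V followed the same pattern of overlap. MT-CYB (ENSG00000198727, MT:14747-15887), cytochrome b and the only mitochondrially encoded subunit of complex III, was at 1315, 1280 and 1167 FPKM in core and 2126, 1231 and 2055 in invasive libraries. Invasive replicate 2 fell among the core values, and the log2 difference was 0.48 (SE 0.41, limma adjusted p = 0.358). MT-ATP6 (ENSG00000198899, MT:8527-9207), which forms part of the proton channel of the ATP synthase, was at 2884 ± 254 FPKM in core and 3844 ± 1189 in invasive libraries. MT-ATP8 was at 84.8 ± 7.82 against 108 ± 27.5 FPKM.

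MK801 devices gave higher mean levels than core for all 13 mRNAs, but the 3 MK801 libraries disagreed with each other. On the log2 scale the fitted difference was above 0 for 13 of 13, from 0.00 for MT-ND5 to 0.89 for MT-ND1. The median was 0.39, against 0.00 over all genes and 0.23 over the 6886 genes kept by a filter of 5 FPKM. Limma called 0 of 13 (adjusted p 0.236 to 0.997, 0 at an unadjusted p under 0.05) and 0% of all genes (2509 of 11845 unadjusted). None of the 13 separated the groups, where 9.89% of all genes were higher and 8.82% lower without overlap. Scaled per M fragments, 9 of the 13 were higher and the median was 0.09, while the median of all genes moved to -0.21. Quantile normalization turned the median of the 13 to -0.11, with 0.04 over all genes.

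MK801 replicate 3 gave the lowest MK801 value for 13 of 13 mRNAs and the lowest of all 9 libraries for 8 of 13. MK801 replicates 1 and 2 together gave the highest of the 9 for 12 of them (4 and 8). MT-ND1 was at 3158 and 3592 FPKM in replicates 1 and 2 and at 1302 in replicate 3, the last within the core range. MT-CO2 was at 12782, 11369 and 4313 FPKM, and MT-CO1 at 8349, 9004 and 4027. For MT-CO2 and MT-CO1, replicate 3 lay below every core library. MT-ND2 was at 4015, 4868 and 1878 FPKM, and MT-ND3 at 4713, 3087 and 1113, so that each spanned the core range from above to below.

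The call for MK801 against core rested on that library. Without MK801 replicate 3, limma called 6 of the 13 mRNAs higher, MT-ND1, MT-ND2, MT-CO1, MT-CO2, MT-CO3 and MT-ND3, with a median log2 difference of 0.81 over the 13. In the same fit 25.2% of all genes were called higher. MT-ND3 then differed by 1.37 on the log2 scale (adjusted p = 0.011) and MT-ND1 by 1.35 (adjusted p = 0.0099). MK801 replicate 3 was also the deepest library, with 54.4 M fragments, and detected 21517 genes at equal depth, more than any other library.

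Against the invasive group, MK801 libraries showed no common direction. Of the 13 mRNAs, 8 were higher and 5 lower. The median log2 difference was 0.06, with adjusted p of 0.831 to 0.997 and 0 at an unadjusted p under 0.05. All 13 overlapped, where 5.22% of all genes were higher and 5.63% lower without overlap, and limma called 0% of genes (978 of 11845 unadjusted). The median over the 13 was -0.20 without MK801 replicate 2 and 0.43 without MK801 replicate 3. MT-ND2 differed most, at 3587 ± 1540 FPKM in MK801 against 2209 ± 485 in invasive libraries (log2 difference 0.61, SE 0.41, limma adjusted p = 0.831).

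The share of all gene fragments that were mitochondrial does not depend on how FPKM was scaled. It was 3.82, 4.10 and 4.05% in core, 4.82, 2.48 and 4.86% in invasive and 4.51, 5.56 and 3.19% in MK801 libraries. Core libraries lay close together, and both other groups spread to either side of them. The means were 3.99 ± 0.150, 4.05 ± 1.36 and 4.42 ± 1.19%, and an exact permutation test over the 3 groups (1680 assignments, on log2 shares) gave p = 0.904 (adjusted 0.904 over 3 such quantities). Tests of 3 against 3 libraries cannot go below 0.1 and gave exact two-sided p of 1 for invasive against core and 0.7 for both MK801 comparisons. In bulk samples, fewer mitochondria per cell and less RNA per mitochondrion cannot be told apart.

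**Figure D2:**
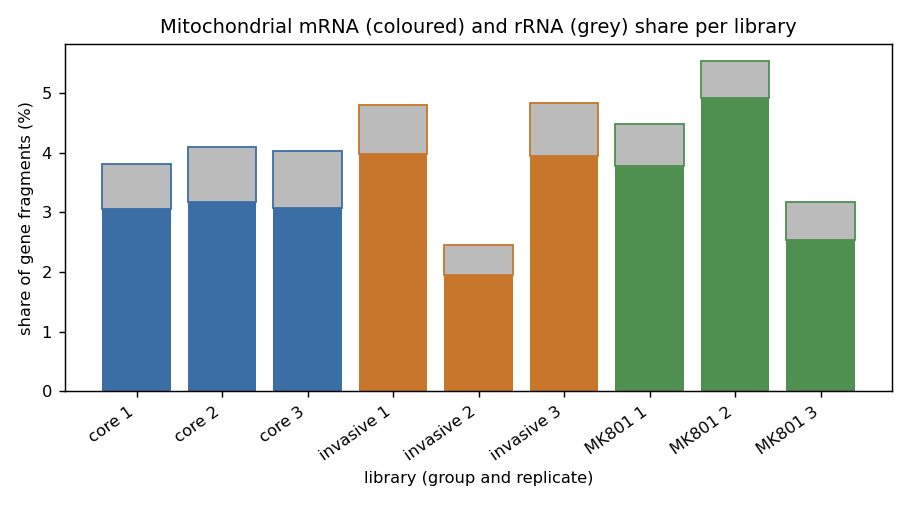
Share of gene fragments (%) on mitochondrial mRNAs (coloured) and rRNAs (grey) in each library; tRNAs, at most 0.0280%, are not drawn. The 3 core bars are level at 3.82 to 4.10% in all, while invasive replicate 2 (2.48%) and MK801 replicate 3 (3.19%) lie below them and the other 4 above.

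The mRNAs made up most of that share, with 1.95 to 4.91% of fragments, the rRNAs 0.502 to 0.951% and the tRNAs 0.0177 to 0.0280%. Invasive replicate 2 had the lowest mRNA and rRNA shares and the highest tRNA share of the 9 libraries.

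The 2 rRNAs form the core of the mitochondrial ribosome, MT-RNR1 (ENSG00000211459, MT:648-1601) in its small subunit and MT-RNR2 (ENSG00000210082, MT:1671-3229) in its large subunit. MT-RNR1 was at 1724, 2011 and 1883 FPKM in core, 2098, 1624 and 2056 in invasive and 1977, 1355 and 1052 in MK801 libraries. MT-RNR2 was at 3054, 4063 and 3810, then 4029, 3093 and 4094, then 4658, 3478 and 2827 FPKM. Neither separated any pair of groups, and limma called neither in any comparison (adjusted p from 0.387 to 0.995, and 0 of 2 at an unadjusted p under 0.05). Between invasive and core they differed by 0.03 and 0.04 on the log2 scale. Per M fragments the median of both was -0.27, where that of all genes was -0.25. In MK801 against core the median of both was -0.21, and it was -0.50 per M fragments, -0.51 with voom and -0.56 after quantile normalization. Over all genes the medians in these 3 fits were -0.21, -0.25 and 0.04. In each of these 3 fits 1 of the 2 had an unadjusted p under 0.05 and neither was called.

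Relative to the mRNAs, rRNA was most abundant in core libraries. There were 24.7, 28.6 and 30.9 rRNA fragments per 100 mRNA fragments in core, 20.9, 25.8 and 22.5 in invasive and 18.6, 12.8 and 25.6 in MK801 libraries. Core replicate 1 lay below invasive replicate 2 and MK801 replicate 3, so the groups overlapped. The exact permutation test over 3 groups gave p = 0.1 (adjusted 0.3 over 3 quantities), and p = 0.0071 without MK801 replicate 3. The mean log2 ratio was lower by 0.28 in invasive than in core and by 0.61 in MK801 than in core (exact two-sided p = 0.2 for each, n = 3 against 3). Poly-T capture selects RNA by its tail, and how much of each rRNA was captured was not measured.

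The balance between the rRNAs differed with MK801, an observation made after the values were seen and given without a test. It was picked from several gene-pair ratios, and the others did not separate MK801 from the controls. Those were MT-ATP6 to MT-ATP8, MT-ND4 to MT-ND4L, MT-CO2 to MT-CO1 and MT-ND3 to MT-ND5. The FPKM ratio of MT-RNR2 to MT-RNR1 was 1.77, 2.02 and 2.02 in core, 1.92, 1.90 and 1.99 in invasive and 2.36, 2.57 and 2.69 in MK801 libraries. All 3 MK801 values lay above all 6 control values, MK801 replicate 3 among them, although that library went the other way from replicates 1 and 2 in mRNA level.

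**Figure D3:**
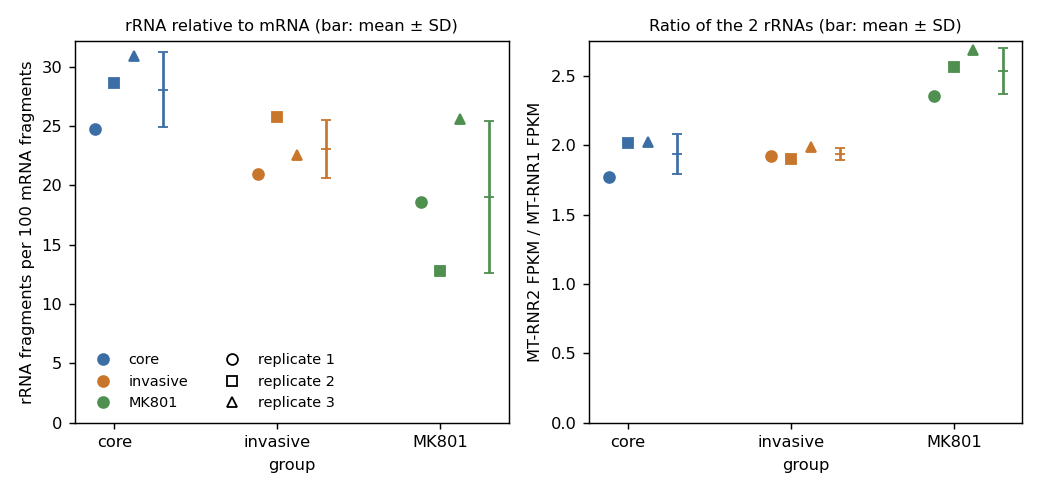
Left, rRNA fragments per 100 mRNA fragments, and right, the FPKM ratio of MT-RNR2 to MT-RNR1, 1 point per library with mean ± SD (n = 3) beside each group. The left panel overlaps between groups (12.8 to 30.9), while on the right the MK801 libraries (2.36 to 2.69) lie above all controls (1.77 to 2.02).

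Because precursors are shared, the make-up of the mRNA pool was also compared, as each log2 FPKM minus the mean of the 13 in its library, which removes differences in scaling. No mRNA passed the exact permutation test over the 3 groups after adjustment over 13, and 1 had an unadjusted p under 0.05. That was MT-ND2, at 0.40, 0.75 and 0.38 in core, 0.23, 0.23 and 0.08 in invasive and 0.61, 0.73 and 0.63 in MK801 libraries (exact permutation p = 0.0143, adjusted 0.186). Invasive libraries were the lowest 3 of the 9 for this gene. Leaving out core replicate 2, whose value was the highest of all, brought the adjusted p to 0.046.

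Within the pool, MT-ND3 lay further from MT-ND5 and MT-ND6 in some libraries than in others. MT-ND3 stood at -0.08, 0.09 and -0.23 relative to the mean of the 13 in core, 0.30, 1.19 and 0.33 in invasive and 0.84, 0.08 and -0.13 in MK801 libraries. MT-ND5 stood at -0.87, -0.86 and -0.75, then -1.06, -1.39 and -1.12, then -1.73, -1.15 and -0.92. MT-ND6 stood at -0.82, -0.62 and -0.61, then -1.002, -1.46 and -1.11, then -1.26, -0.90 and -0.65. MT-CYB, which lies beyond both in the genome, did not share this, at -0.21, -0.39 and -0.32, then -0.10, -0.24 and -0.05, then -0.37, -0.32 and -0.41. For MT-ND3 the highest values, and for MT-ND5 the lowest, came from invasive replicate 2 and MK801 replicate 1, the libraries that detected the fewest genes. The same libraries gave MT-ND3 to MT-ND5 FPKM ratios of 6.01 and 5.94, where the other 7 gave 1.43 to 2.74. The part of library quality in this was not tested.

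**Figure D4:**
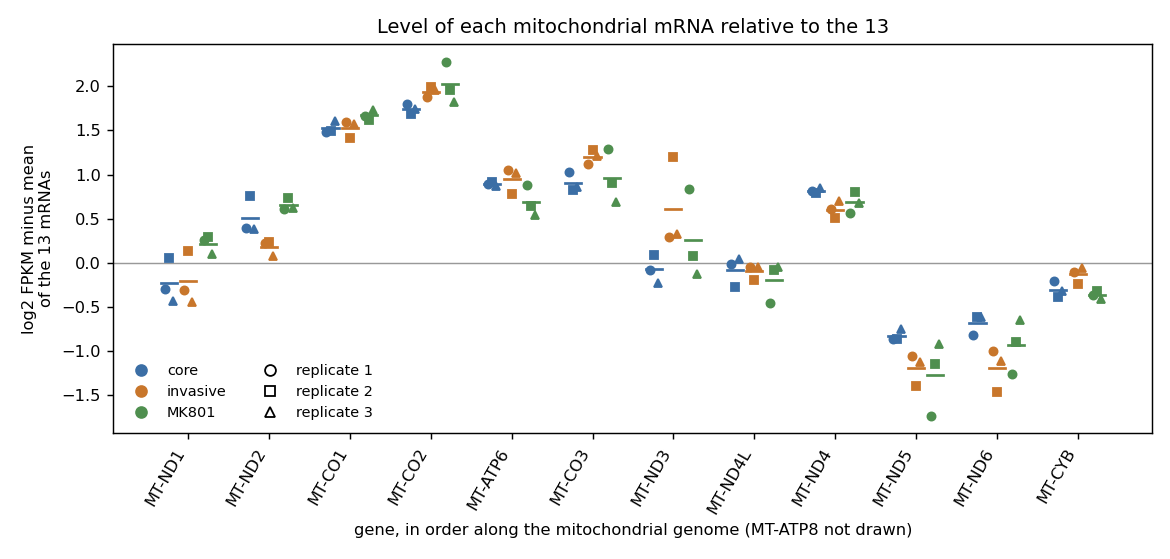
Log2 FPKM of 12 mRNAs minus the mean of the 13 in the same library, in genome order, with group means as short lines; MT-ATP8, at -4.57 to -4.01, is not drawn. MT-ND3 lies highest, and MT-ND5 lowest, in invasive replicate 2 (square) and MK801 replicate 1 (circle).

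Between invasive and core, 7 of the 13 relative levels had groups that did not meet, each with an exact two-sided p of 0.1, the smallest that 3 against 3 allows. In FPKM, 32.0% of all genes were higher and 32.8% lower without overlap in this comparison. Such shares were not computed for relative levels, so 3 higher and 4 lower of 13 have no like background. MT-CO2, MT-CO3 and MT-ND3 were higher by 0.20, 0.30 and 0.68 on the log2 scale, and MT-ND2, MT-ND4, MT-ND5 and MT-ND6 lower in invasive by -0.33, -0.21, -0.37 and -0.51. Since these values are relative to a common mean, higher and lower ones balance. In MK801 libraries, MT-ND1, MT-CO1 and MT-CO2 lay above all core values and MT-ND5 below them, where 9.89% of all genes were higher and 8.82% lower in FPKM. MT-ND2 and MT-CO1 lay above all invasive values and MT-CYB below them, where 5.22% of all genes were higher and 5.63% lower in FPKM. None of the 13 separated MK801 from either group in FPKM itself, and 0 passed the test over the 3 groups.

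Poly-T libraries retain little mitochondrial tRNA, and what there was came mostly from 4 genes. Of the 22 tRNA genes, 20 reached 1 FPKM in at least 3 libraries. MT-TC, MT-TN, MT-TP and MT-TY, for cysteine, asparagine, proline and tyrosine, had medians of 1582, 643, 530 and 205 FPKM over the 9 libraries. All 4 are on the minus strand, and the other 4 minus-strand genes had medians of at most 12.98 FPKM. The highest median among the 14 plus-strand genes was 50.3 FPKM, for MT-TR. MT-TC and MT-TN together took 56.4 to 84.3% of all tRNA fragments.

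The genes for cysteine and asparagine flank a gap of 31 bases, the site of the origin of light-strand replication, and that for proline borders the non-coding control region. They are printed whole, with MT-TG and MT-TS2 from the plus strand for contrast, and with the last 3 bases in capitals because the CCA end of a tRNA is added after transcription. Only 1 of the 22 genes, MT-TY, ends in CCA, and their lengths run from 59 to 75 bases.

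MT-TC (MT:5761-5826, minus strand): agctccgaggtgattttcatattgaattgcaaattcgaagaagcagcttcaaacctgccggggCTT
MT-TN (MT:5657-5729, minus strand): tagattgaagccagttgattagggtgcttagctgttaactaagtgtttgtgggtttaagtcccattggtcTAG
MT-TP (MT:15956-16023, minus strand): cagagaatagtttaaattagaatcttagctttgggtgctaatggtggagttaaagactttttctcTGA
MT-TG (MT:9991-10058, plus strand): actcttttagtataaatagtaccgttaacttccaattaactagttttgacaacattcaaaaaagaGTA
MT-TS2 (MT:12207-12265, plus strand): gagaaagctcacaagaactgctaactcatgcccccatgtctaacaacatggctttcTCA

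MT-TC was at 909, 1065 and 914 FPKM in core, 1688, 2733 and 1658 in invasive and 2646, 1582 and 978 in MK801 libraries. MT-TN was at 431, 479 and 445, then 698, 1626 and 817, then 1314, 643 and 399 FPKM. For both, all invasive libraries lay above all core libraries. MK801 replicate 3 lay within the core range for MT-TC and below it for MT-TN. The log2 differences between invasive and core were 1.04 (SE 0.40, limma adjusted p = 0.112) and 1.11 (SE 0.46, limma adjusted p = 0.119). MT-TY, which adjoins MT-TC, was at 144, 141 and 121 FPKM in core, 205, 210 and 235 in invasive and 227, 342 and 153 in MK801 libraries. It was the only tRNA gene whose MK801 libraries also lay above core throughout, with log2 differences of 0.68 and 0.75 (limma adjusted p = 0.130 and 0.235).

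MT-TP did not share this pattern. It was at 516, 506 and 537 FPKM in core, 530, 487 and 538 in invasive and 829, 686 and 420 in MK801 libraries, and its invasive mean was 0.997 times that of core. Of the 20 tRNA genes tested, 9 were higher and 11 lower in invasive than in core (median log2 difference -0.03). That split depended on the processing, with 16 higher and a median of 0.58 once the GC trend was removed. After quantile normalization 12 were higher (median 0.09). Per M fragments 9 were higher (median -0.20), where the median of all genes was -0.25. MT-TC, MT-TN and MT-TY were the 3 that did not overlap, all higher (3 of 20, against 32.0% of all genes). Limma called 0 of 20 in each comparison, and at an unadjusted p under 0.05 there were 3 in invasive against core, 1 in MK801 against core and 1 in MK801 against invasive. Over all 11845 tested genes there were 4461, 2509 and 978. Voom gave 2, 0 and 0 of the 20 at that level. When the core and invasive groups were compared alone, MT-TC, MT-TN and MT-TY passed, with adjusted p of 0.014, 0.019 and 0.015, in a fit that called 26.3% of all genes higher. They also passed with the replicate block added to that fit (adjusted p of 0.0044, 0.0081 and 0.0095, with 30.7% of all genes called higher). With the block in the model of all 9 libraries they did not (adjusted p of 0.0646, 0.0791 and 0.0910).

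**Figure D5:**
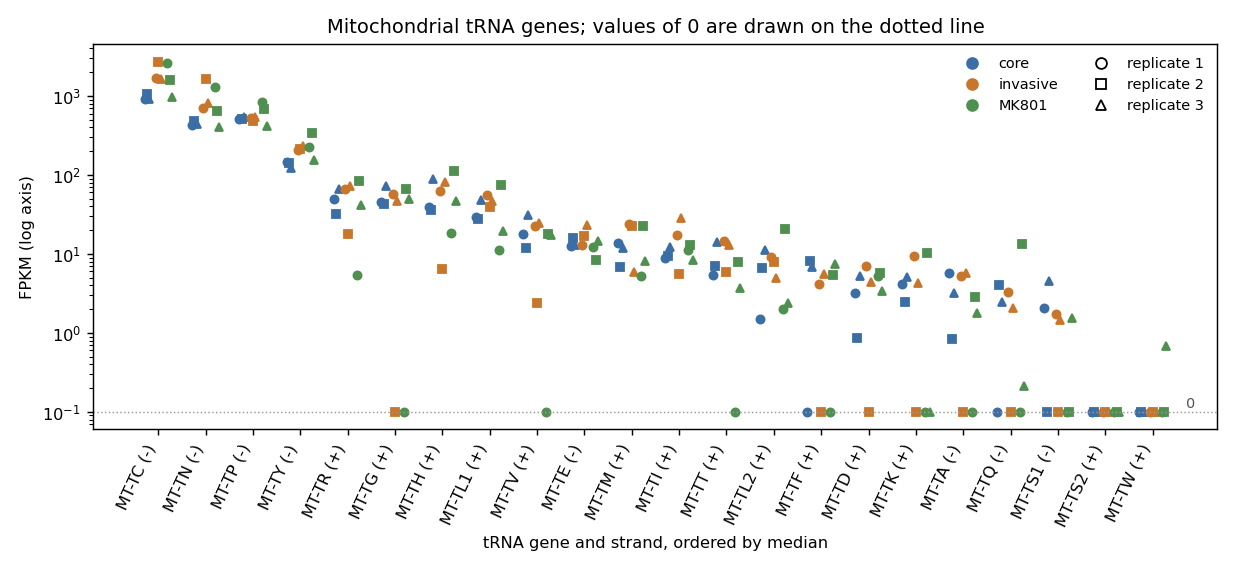
FPKM (log axis) of the 22 tRNA genes in each library, ordered by median, with the strand in brackets; values of 0 sit on the dotted line. The first 4 genes are all on the minus strand, and most of the zeros further right belong to invasive replicate 2 (orange square) and MK801 replicate 1 (green circle).

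The plus-strand tRNA genes were lower by far. MT-TR, MT-TG, MT-TH and MT-TL1, for arginine, glycine, histidine and leucine, had medians of 50.3, 46.4, 46.1 and 39.3 FPKM. Each touches the mRNA or rRNA on its left without a gap, but so do weaker genes such as MT-TI, MT-TT and MT-TW, with medians of 11.3, 7.06 and 0 FPKM. MT-TV, between the 2 rRNAs, had a median of 17.7 FPKM, and MT-TF, which lies between the control region and MT-RNR1, 5.47.

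Plus-strand tRNAs were scarcest in the same 2 libraries as before. Per M mitochondrial mRNA fragments, there were 580, 461 and 1021 plus-strand tRNA fragments in core, 609, 308 and 630 in invasive and 83.5, 582 and 678 in MK801 libraries. Invasive replicate 2 and MK801 replicate 1 were the lowest, with 6 and 7 of the 14 genes at 0 where the other libraries had 2 or 3. Minus-strand tRNAs ran the other way in invasive replicate 2, at 14037 per M mRNA fragments, against 4241 to 6982 in the other 8 libraries.

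MT-TG, between MT-CO3 and MT-ND3, shows the contrast within a short stretch. It was at 44.9, 42.8 and 71.8 FPKM in core, at 57.1, 0 and 46.4 in invasive and at 0, 65.7 and 50.2 in MK801 libraries. Both libraries at 0 had MT-ND3, directly to its right, at their group's highest value. No fragment was counted on MT-TS2, for serine, in any library, which allows a level of at most 3.59 FPKM in the library with the highest limit (3 fragments, for counting error alone). It lies between MT-TH and MT-TL2 without a gap on either side. MT-TW had 3 fragments in all, in 1 library, and the others of the 20, MT-TE, MT-TM, MT-TI, MT-TT, MT-TL2, MT-TD, MT-TK, MT-TA, MT-TQ and MT-TS1, had medians of 1.45 to 12.98 FPKM.

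The nuclear genes that make up the same complexes were compared next. Of 73 tested nuclear subunits of complexes I, III, IV and V, 54 were higher and 19 lower in invasive than in core. Their median log2 difference was 0.41, beside 0.31 for the 13 mitochondrial mRNAs. Per M fragments the median of the 73 was 0.14, where the median of all genes was -0.25. Limma called 0 of the 73, and at an unadjusted p under 0.05 there were 22 higher and 5 lower. Of all 11845 tested genes, 4461 were under that level, in either direction. By complex, 27 of 35 were higher for complex I, 7 of 9 for III, 7 of 11 for IV and 13 of 18 for V. With the replicate block, 6 were called higher and 4 lower, against 11.7 and 9.64% of all genes. With core and invasive alone and that block (chosen after the data were seen), 36 were called higher and 7 lower, against 30.7 and 29.5%. Without overlap, 43 of the 73 were higher and 9 lower, against 32.0 and 32.8% of all genes. In MK801 against core 53 of 73 were higher (median 0.29). Per M fragments 40 were higher (median 0.03), where the median of all genes was -0.21. Without invasive replicate 2 and MK801 replicate 1, 37 were higher (median 0.02). In MK801 against invasive 15 of 73 were higher (median -0.15, and -0.39 without those libraries).

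Individual subunits went both ways. UQCRC1, a core protein of complex III, was at 49.3, 41.1 and 36.1 FPKM in core and 92.1, 167 and 101 in invasive libraries (log2 difference 1.45, limma adjusted p = 0.106). UQCRB, another subunit of that complex, was at 8.10, 9.15 and 9.55 against 4.11, 3.53 and 4.60 (log2 difference -0.97, limma adjusted p = 0.0944). With the GC trend removed these differences were 0.80 and -0.26. COX8A and COX6C, small subunits of complex IV, likewise differed by 1.36 and -0.69 on the log2 scale (0.73 and -0.20 without the GC trend). In complex I, NDUFS8, which carries iron-sulfur clusters, differed by 1.30, and NDUFS4 and NDUFB3 by -0.96 and -1.13 (0.70, -0.51 and -0.79 without the GC trend). COX8A, NDUFS8 and UQCRC1 had their highest invasive value in replicate 2, where 11 of the 13 mitochondrial mRNAs had their lowest invasive value.

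The level of the mitochondrial mRNAs relative to the nuclear ones overlapped between the groups. The mean log2(FPKM + 1) of the 13 mitochondrial mRNAs exceeded that of the nuclear subunits by 6.39, 6.51 and 6.50 in core, 6.74, 5.82 and 6.60 in invasive and 6.50, 7.30 and 6.27 in MK801 libraries. An exact permutation test over the groups gave p = 0.736 (adjusted 0.904 over 3 quantities). Invasive replicate 2 was the lowest and MK801 replicate 2 the highest.

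Factors that transcribe the mitochondrial genome were mostly lower in invasive than in core libraries, but not the polymerase itself. Of 10 genes, 2 were higher and 8 lower (median log2 difference -0.74, 0 called, 2 higher and 5 lower at an unadjusted p under 0.05). That level was reached by 4461 of all 11845 tested genes, in either direction. With the GC trend removed 4 of the 10 were higher and the median was -0.09. With the replicate block 2 of the 10 were called higher and 4 lower, where 11.7% of all genes were called higher and 9.64% lower. POLRMT, the polymerase, was at 18.5, 19.9 and 13.8 FPKM in core, 28.7, 42.0 and 30.4 in invasive and 49.3, 40.5 and 22.4 in MK801 libraries. All invasive and MK801 values lay above all core values (log2 differences 0.91 and 1.00, limma adjusted p = 0.106 and 0.235), a difference that was 0.15 and 0.38 without the GC trend. TFB2M, which helps POLRMT to open promoters, was at 19.9, 24.3 and 22.9 in core against 10.5, 8.45 and 15.7 FPKM in invasive libraries. TEFM, an elongation factor, and MTERF1, a termination factor, lay between 1.55 and 2.37 FPKM in core and between 0.440 and 0.963 in invasive libraries. Their differences of -0.76 and -0.91 were -0.02 and -0.15 without the GC trend.

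Genes that process and stabilise mitochondrial RNA showed 10 of 32 higher and 22 lower (median -0.42, and 0.02 without the GC trend). Limma called 0, and 5 were higher and 8 lower at an unadjusted p under 0.05, where 4461 of all 11845 genes were. TRMT10C, a part of the enzyme that cuts the 5′ ends of tRNAs, was at 22.9, 21.4 and 27.8 FPKM in core, 7.21, 11.0 and 9.82 in invasive and 7.30, 7.58 and 20.7 in MK801 libraries. ELAC2, which cuts their 3′ ends, was at 14.1, 12.3 and 11.9, then 24.3, 27.0 and 19.3, then 22.7, 17.1 and 13.05 FPKM. TRMT10C, which is only a part of its enzyme, and ELAC2 differed in opposite directions between invasive and core. The differences were -1.29 (limma adjusted p = 0.103) and 0.82 (limma adjusted p = 0.106), and neither passed. Without the GC trend these differences were -0.62 and 0.41. FASTKD2, which binds mitochondrial RNA including MT-RNR2 and MT-ND6, differed by -0.81 (limma adjusted p = 0.106), and by -0.06 without the GC trend. With the replicate block 3 of the 32 were called higher, ELAC2 among them, and 4 lower, among them TRMT10C and FASTKD2. In that fit 11.7% of all genes were called higher and 9.64% lower.

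Limma called no gene of the remaining lists in any comparison without the block. In invasive against core, 4461 of all 11845 tested genes had an unadjusted p under 0.05, in either direction. The median log2 difference over all these genes was -0.02, and -0.25 per M fragments. With the replicate block, 11.7% of all genes were called higher and 9.64% lower. Of 77 mitochondrial ribosomal proteins, 51 were higher and 26 lower in invasive than in core (median 0.26, 14 higher and 12 lower at an unadjusted p under 0.05). Per M fragments 39 were higher and the median was 0.02, and with the replicate block 8 were called higher and 6 lower. Mitochondrial tRNA synthetases, which charge the tRNAs, were evenly divided, with 11 higher and 10 lower (median 0.09, or -0.16 per M fragments, 1 and 2 unadjusted). The 19 genes of mitochondrial DNA maintenance gave 11 higher and 8 lower (median 0.05, 3 and 3 unadjusted), but 7 were higher (median -0.23) per M fragments. The 20 import genes gave 12 higher and 8 lower (median 0.54, 6 and 5 unadjusted), with a median of 0.11 once the GC trend was removed and 0.25 per M fragments. Of the 6 tested regulators of mitochondrial biogenesis, 3 were higher and 3 lower (median -0.24, 0 and 1 unadjusted). With the block, 2 maintenance genes were called lower, 2 import genes higher and 2 lower, and 1 regulator lower. Of 23 tested RNAs that mostly lack poly-A tails, histone mRNAs among them, 8 were higher and 15 lower in invasive than in core (median -0.27, 0 called, 0 higher and 4 lower at an unadjusted p under 0.05).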

How the data were processed

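RNA sequencing of 9 libraries, 3 each of core, invasive and MK801, was deposited by the authors as FPKM per gene with gene lengths. Tools listed in the submitters' processing notes are HISAT2 2.0.5, an aligner, and featureCounts 1.5.0-p3, a read counter, with the build GRCh38. Strand, multi-mapping and overlap settings are not given in the sources used here, and nearly identical nuclear copies of mitochondrial genes can share fragments with them. Each deposited FPKM times its gene length gave whole fragments after division by 1 constant per library (100% of values, tolerance 0.01 fragments), and these recovered fragments served for shares and ratios. The divisor behind FPKM ranged from 0.769 to 1.23 of the recovered total, so FPKM and scaling per M fragments differ.

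Genes with at least 1 FPKM in at least 3 libraries (11845) were fitted as log2(FPKM + 1) with limma 3.58.1 (R 4.3.3, empirical Bayes with trend) in 1 model of all 9 libraries, with Benjamini-Hochberg adjustment over all of them and a threshold of 0.05. Log2 differences on this scale understate changes of weak genes, and their SE is that of the fit. Shares, ratios and relative levels were compared by exact two-sided permutation over libraries. Scripts were tested on simulated data. A value of 0 allows up to 3 fragments, for counting error only. Sequences and coordinates are from GENCODE release 29, to which 37 of 37 genes matched.

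The members and the gene lists were chosen with earlier results of these data known. All mRNAs and rRNAs are named, as are tRNA genes that passed the filter, and nuclear genes were named only from among those of each list with the smallest p in a comparison (3 for invasive against core, 2 for each other), with several lists given by counts alone. MT-TS2 and MT-TW, the 2 tRNA genes outside the filter, and the ratio of the rRNAs were named after their values were seen. Alternatives were pseudocounts of 0.1 and 0.5, no filter or 5 FPKM, per-M, median-of-ratios and quantile scaling, voom on recovered fragments, the replicate number as a block, the groups compared alone, removal of the loess trend over gene GC content, and leaving out each library. The GC trend together with the block, core and invasive alone with the block, and leaving out invasive replicate 2 with MK801 replicate 1, were chosen after the data were seen.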

Additional observations from a re-analysis of the deposited data

How the results depend on the processing

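For invasive against core, where 0 genes were called, 6 were called after quantile normalization, 6179 with both groups compared alone, 7134 with both alone and a replicate block, 38 with the GC trend removed and a replicate block, 14 without invasive replicate 2 and MK801 replicate 1 together, and 0 to 4888 when single libraries were left out (4675 without MK801 replicate 1 and 4888 without MK801 replicate 3). Mitochondrial mRNAs called numbered 1 with both groups alone, 2 with both alone and a replicate block, and 0 to 1 with a library left out. For MK801 against core, leaving out 1 library gave 0 to 5941 genes and 0 to 6 mitochondrial mRNAs, the highest without MK801 replicate 3. For MK801 against invasive, the counts were 1 gene with a filter of 5 FPKM, 73 with the GC trend removed, 39 with the GC trend removed and a replicate block, and 0 to 42 with a library left out, and 0 mitochondrial mRNAs in each. The rRNA to mRNA ratio gave exact p of 0.0071 to 0.2393 over the 3 groups with a library left out, and the composition 0 to 1 mRNAs. The cause of these differences was not tested.

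Same-numbered libraries had correlated deviations of -0.01, 0.24 and 0.44 between core and invasive, so that they did not all deviate together. Core and invasive libraries of different number had -0.40 to 0.21. Column names share a stem for each number. A replicate block gave 2525 called genes in invasive against core and 0 in both other comparisons, and 0 mitochondrial mRNAs in any. Of the single-gene values, 2308 kept their direction and their side of the threshold, 251 uncalled ones changed sign and 24 passed only under an alternative. Low counts limit the tRNA values, since MT-TW had 3 fragments in all and MT-TS1 22.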

Other observations

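Nuclear copies of mitochondrial genes took a small share of fragments. The 407 genes listed as such copies held 0.0160 to 0.0444% of gene fragments, and 3 of them, on chromosome 1, passed the filter on low values. MTATP6P1 (1:633696-634376) is 98.5% identical to MT-ATP6 over 681 aligned bases, and its fragments were 3.81 to 5.31% of those on MT-ATP6. MTND2P28 (1:629640-630683) is 98.4% identical to MT-ND2 and was at 4.92 to 6.42% of it. MTCO1P12 (1:631074-632616) is 98.7% identical to MT-CO1 over 1542 aligned bases, yet it was at 0.101 to 0.222% of it. How fragments that match both places were assigned is not given in the sources used here. Counting all copies with the mitochondrial genes gave shares of 2.50 to 5.61%, in place of 2.48 to 5.56%.

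MALAT1, NEAT1 and the other nuclear-retained long RNAs, 4 genes in all, summed to 571, 637 and 1424 fragments per M gene fragments in core, 176, 94.3 and 251 in invasive libraries, and 74.6, 243 and 761 with MK801. The lowest sums were in MK801 replicate 1 and invasive replicate 2, the libraries with the fewest genes detected and the fewest plus-strand mitochondrial tRNA fragments per mRNA fragment.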
